A study of Mus musculus with 4 samples.

Results

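The genes described here belong to 5 gene families and groups that the mouse placenta is known to express, namely the prolactin family, the pregnancy-specific glycoproteins (Psg), a set of Ceacam genes, the trophoblast-specific proteins Tpbpa and Tpbpb, and a set of cathepsins. They were chosen by gene symbol with no filter on level. Of 18194 genes with a probe set of their own, 42 were members: 17 of the prolactin family, 8 of the Psg family, 7 Ceacam genes, 2 Tpbp genes and 8 cathepsins. They had 62 probe sets, and each gene is given by its brightest probe set, judged by mean log2(signal + 16) across the 4 arrays. That choice used the measured signals, and the families were proposed because of them, so the values below are a description.

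Trachea was taken from C57BL/6 embryos at day 16 of gestation, and each sample was put on 1 Affymetrix array. There were 2 samples labelled a1H knockout and 2 of wild type, numbered 1 and 2 in each genotype. The name a1H is read as the pore subunit of a T-type calcium channel, the product of Cacna1h, and homozygous embryos were sought. The labels do not say how many embryos made a sample or whether the numbers mark a shared litter or day, so the spread between samples may be technical.

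The deposited values are MAS5 signals in linear units, which have no fixed zero level, and the array medians were 426 and 320 in the labelled knockout and 459 and 416 in wild type. Cacna1h read 981 and 631 in the labelled knockout, against 630 and 538 in wild type, so neither labelled knockout array read below wild type. Where its probes lie relative to the deletion was not known, and the genotype labels therefore stay unchecked. The 9 probe sets for spiked hybridisation controls had a geometric mean signal of 4744 and 14007 on labelled knockout replicates 1 and 2, and 4787 and 11598 on wild-type replicates 1 and 2. For actin, the 3' probe set was brighter than the 5' one by a ratio of 1.90 and 1.97 in the labelled knockout and of 1.69 and 1.66 in wild type. For Gapdh this ratio was 1.36 and 1.61 in the labelled knockout and 1.26 and 1.40 in wild type. Both ratios were highest on labelled knockout replicate 2.

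The placenta is built by trophoblast cells of the embryo, which form a labyrinth for exchange, a layer of spongiotrophoblast with glycogen cells, and giant cells that border the maternal decidua. In rodents, gene duplication gave these cells large families of secreted proteins. The prolactin family holds hormones related to pituitary prolactin, the Psg and Ceacam genes encode relatives of carcinoembryonic antigen from the immunoglobulin superfamily, and the placental cathepsins are cysteine proteases related to cathepsin L.

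The members lie in dense clusters, and some pairs of 1 family have promoter windows alike in sequence. By the gene order of the assembly GRCm38.p6, the 17 prolactin family members formed 1 run on chromosome 13 with 0 other measured genes between them. The Tpbp genes and the 8 cathepsins formed another run on chromosome 13 with 1 other measured gene inside it, Ctla2a. On chromosome 7, 14 Psg and Ceacam genes formed a run with 12 other measured genes, and Ceacam10 stood apart from it. RefSeq promoter windows, which hold 250 bases before and 50 after a gene's start, were found for 36 of the 42 members. Windows of the members of 1 family had a median identity of 52.0% over 159 pairs, against 47.1% over 471 pairs from different families. Of the pairs of 1 family, 17 reached 70% identity, and 0 of the others did. Tpbpa and Tpbpb had 95.7% identity, Psg21 and Psg23 had 96.4%, and the windows of Prl8a8 and Prl8a1 had 77.3% and 80.9% identity with that of Prl8a9.

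The windows shown here, from RefSeq on GRCm38.p6, are those of the member of each family with the greatest excess on labelled knockout replicate 2 among members with a window, and of Tpbpa beside its near copy. That of Cts7, a cathepsin with no such excess, is shown for contrast. Capitals mark matches to TGANTCA, a motif of AP-1 factors, to AGATAA, a motif of GATA factors, and to TATAAA, on either strand. The Prl8a9 window is chr13:27564557-27564856 on the minus strand, that of Psg21 is chr7:18656676-18656975 on the minus strand, and that of Ceacam12 is chr7:18065679-18065978 on the plus strand. The Tpbpa, Tpbpb, Ctsj and Cts7 windows are on the minus strand at chr13:60941887-60942186, chr13:60904798-60905097, chr13:61005876-61006175 and chr13:61358147-61358446.
Prl8a9: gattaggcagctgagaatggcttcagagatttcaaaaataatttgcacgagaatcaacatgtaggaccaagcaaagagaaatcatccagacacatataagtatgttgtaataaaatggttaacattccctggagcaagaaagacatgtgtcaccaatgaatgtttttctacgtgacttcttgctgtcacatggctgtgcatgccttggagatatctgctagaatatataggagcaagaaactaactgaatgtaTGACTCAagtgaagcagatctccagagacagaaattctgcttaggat
Psg21: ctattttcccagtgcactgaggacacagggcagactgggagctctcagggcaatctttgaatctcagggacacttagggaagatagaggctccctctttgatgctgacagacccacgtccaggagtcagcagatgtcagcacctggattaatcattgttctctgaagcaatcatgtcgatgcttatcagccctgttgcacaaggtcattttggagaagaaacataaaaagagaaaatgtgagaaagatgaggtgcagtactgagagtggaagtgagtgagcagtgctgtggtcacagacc
Ceacam12: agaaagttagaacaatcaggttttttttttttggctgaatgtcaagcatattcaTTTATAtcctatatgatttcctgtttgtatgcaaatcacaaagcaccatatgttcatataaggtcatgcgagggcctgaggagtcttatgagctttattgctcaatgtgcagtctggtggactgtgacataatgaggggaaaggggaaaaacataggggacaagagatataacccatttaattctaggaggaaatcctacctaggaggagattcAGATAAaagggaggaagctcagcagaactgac
Tpbpa: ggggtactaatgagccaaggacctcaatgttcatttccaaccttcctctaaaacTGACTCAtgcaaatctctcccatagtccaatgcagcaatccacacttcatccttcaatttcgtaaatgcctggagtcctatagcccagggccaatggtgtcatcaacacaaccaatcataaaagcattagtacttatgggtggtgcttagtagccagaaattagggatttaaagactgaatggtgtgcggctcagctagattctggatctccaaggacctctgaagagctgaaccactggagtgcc
Tpbpb: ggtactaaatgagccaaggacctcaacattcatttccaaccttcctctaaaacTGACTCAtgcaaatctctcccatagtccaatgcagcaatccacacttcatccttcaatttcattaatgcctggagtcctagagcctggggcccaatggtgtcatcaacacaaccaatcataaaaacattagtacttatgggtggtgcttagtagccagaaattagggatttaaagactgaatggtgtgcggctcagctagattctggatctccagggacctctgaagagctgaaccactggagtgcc
Ctsj: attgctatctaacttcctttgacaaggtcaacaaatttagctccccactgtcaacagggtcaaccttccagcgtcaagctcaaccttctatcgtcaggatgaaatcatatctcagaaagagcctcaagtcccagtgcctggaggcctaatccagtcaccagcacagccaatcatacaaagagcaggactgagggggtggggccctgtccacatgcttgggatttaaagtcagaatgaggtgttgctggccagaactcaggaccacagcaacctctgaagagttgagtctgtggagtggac
Cts7: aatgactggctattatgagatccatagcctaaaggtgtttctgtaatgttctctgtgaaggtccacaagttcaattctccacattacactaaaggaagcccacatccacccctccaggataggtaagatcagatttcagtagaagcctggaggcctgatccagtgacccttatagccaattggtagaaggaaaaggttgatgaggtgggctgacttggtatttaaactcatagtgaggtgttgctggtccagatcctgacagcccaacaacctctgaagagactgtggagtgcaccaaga

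TGANTCA was found in the windows of 9 of 36 members (25.0%), against 9.0% of 27025 genes with a window. The 9 were Prl2b1, Prl3a1, Prl7a1, Prl7a2, Prl8a9, Psg18, Psg28, Tpbpa and Tpbpb. AGATAA was found in 11 of 36 members (30.6%), against 12.7% of all genes, and the 11 were 8 prolactin family members and the neighbours Ceacam11, Ceacam12 and Ceacam13. TATAAA was found in 25.0% of members and 15.7% of all genes, AGGAAG, a motif of ETS factors, in 61.1% and 38.4%, and GCCNNNGGC, a motif of AP-2 factors, in 13.9% and 18.5%. All were searched on both strands, and overlaps between motifs were allowed. The median GC content of the windows was 44.9% for members and 52.7% for all windows, and its part in these shares was not tested. Since some windows of 1 family are alike in sequence, the members are not independent draws, and a match shows letters and not a bound site.

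Transcripts of these families were high on labelled knockout replicate 2 and near the level of background on the other 3 arrays, the other labelled knockout array included. The 42 members had a median signal of 25.5 on labelled knockout replicate 1, 5119 on labelled knockout replicate 2, 41.2 on wild-type replicate 1 and 32.5 on wild-type replicate 2. Labelled knockout replicate 2 was the highest array for 39 of the 42 members, against 27.3% of all genes. Labelled knockout replicate 1 was so for 0 members (24.5% of all genes), wild-type replicate 1 for 2 (28.1%) and wild-type replicate 2 for 1 (20.1%). On the scale log2(signal + 16), 36 of 42 members were at least 4-fold higher there than on the highest of the other 3 arrays, against 0.357% of all genes, or 65 in number. Members thus made up 55.4% of those genes, and those genes 85.7% of the members. The other arrays had 0 members past this rule. Of all genes, 0.0605% passed it on labelled knockout replicate 1, 0.0495% on wild-type replicate 1 and 0.385% on wild-type replicate 2. At shares this low, 0 of 42 members says nothing about the families. An excess of at least 4 log2 units was found for 32 members and 0.203% of all genes, of at least 6 for 19 members and 0.115%, and of at least 8 for 8 members and 0.0440%. The median excess of the members was 5.72, and that of all genes -0.29. Just inside the 4-fold rule were Ceacam15 at 2.22 and Prl8a2 at 2.50, and just outside it Prl5a1 at 1.73 and Ceacam9 at 1.01. This sets 1 array against 3, and no second sample checks it. In whole tissue RNA, the number of cells of a type and the RNA per cell cannot be told apart.

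**Figure D1:**
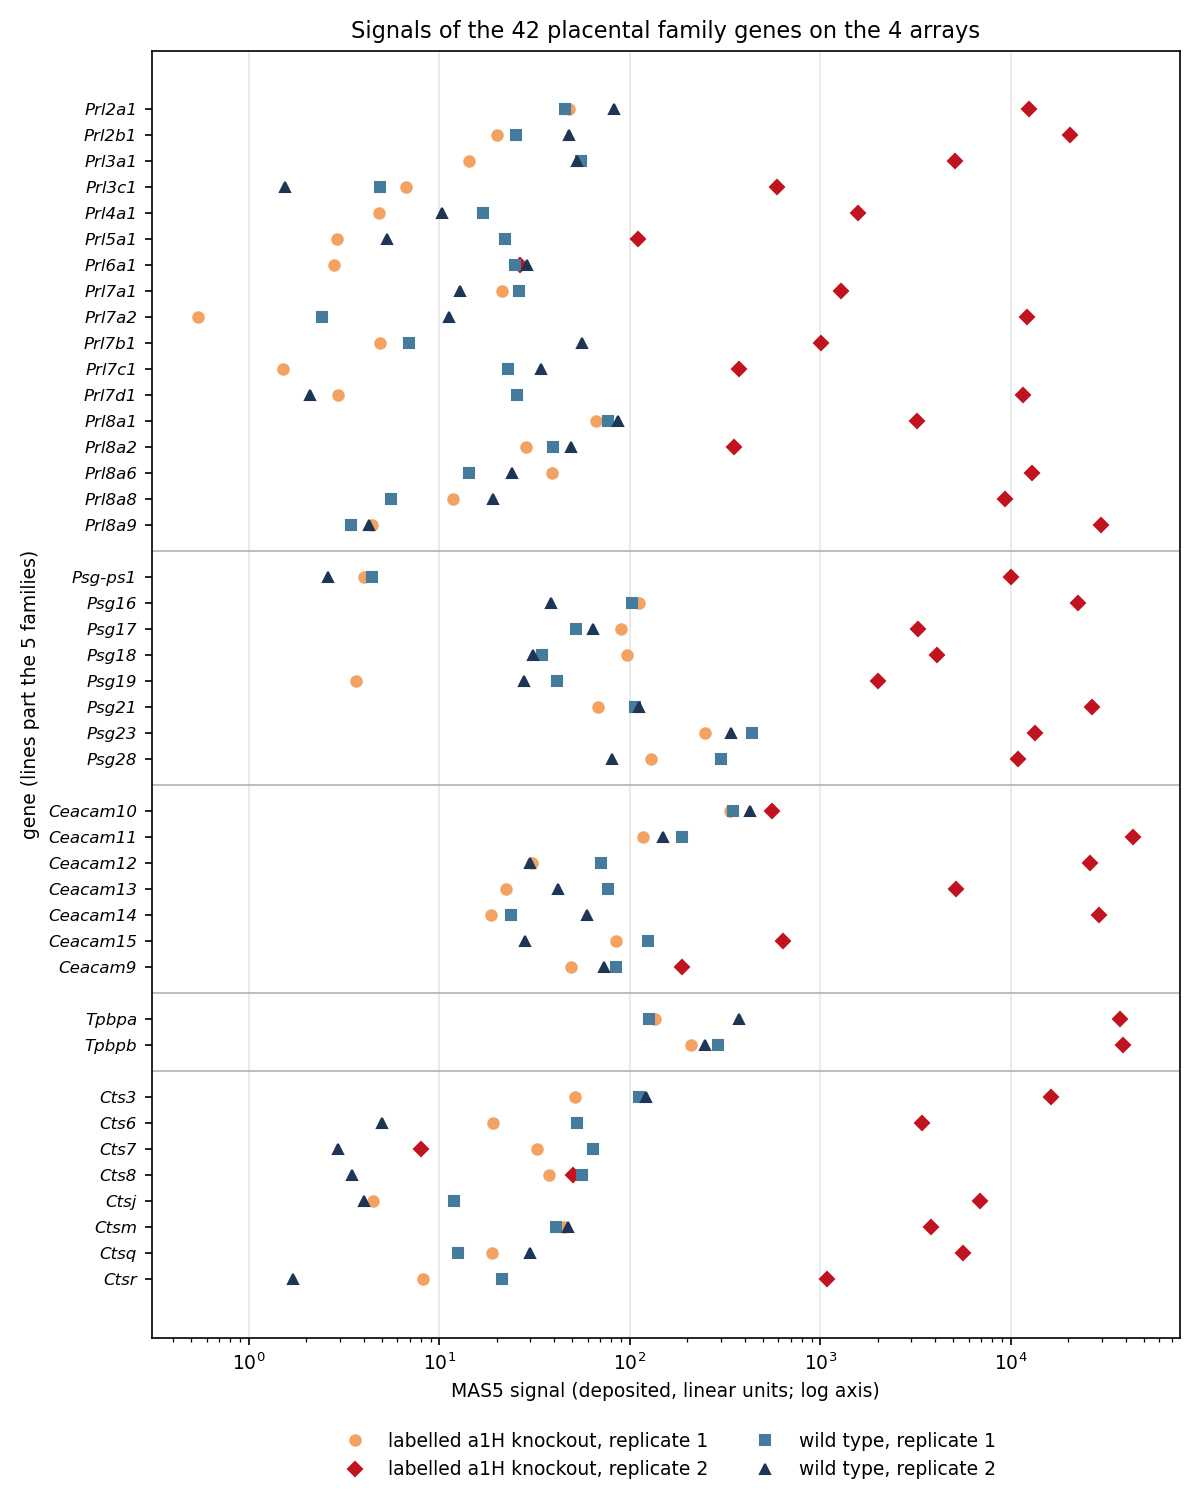
Each row is 1 of the 42 genes and each point the deposited MAS5 signal on 1 array, on a log axis, with the 2 labelled a1H knockout arrays and the 2 wild-type arrays told apart by colour and shape. The points of labelled a1H knockout replicate 2 stand to the right of the other 3 in 39 rows, and Prl6a1, Cts7 and Cts8 are the exceptions.

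As a level for genes not looked for in trachea, 70 olfactory and vomeronasal receptor genes had a 95th percentile of 90.7, 88.9, 133 and 99.4 on labelled knockout replicates 1 and 2 and wild-type replicates 1 and 2. On labelled knockout replicate 2, 39 of 42 members lay above it. On labelled knockout replicate 1 these were 8 members, on wild-type replicate 1 they were 5 and on wild-type replicate 2 they were 7. Ceacam10, Ceacam11, Psg23 and Tpbpb were above it on all 4 arrays. No more than 438 was read for any member outside labelled knockout replicate 2.

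Of the prolactin family, 16 of 17 members were highest on labelled knockout replicate 2 and 15 were at least 4-fold higher there, with a median excess of 5.59 on the log2(signal + 16) scale. Prl8a1, Prl8a6, Prl8a8 and Prl8a9, of the prolactin-like protein C group of spongiotrophoblast, were among them. Prl8a9 read 4.43 and 29880 on labelled knockout replicates 1 and 2, against 3.44 and 4.27 in wild type, and had the greatest excess of all 18194 genes. Prl8a8 read 11.8 and 9334 in the labelled knockout, against 5.57 and 19.2 in wild type. Prl8a6 read 38.9 and 12905 in the labelled knockout, against 14.3 and 24 in wild type. In each, labelled knockout replicate 2 stood alone, far above the other labelled knockout array. Prl8a1 followed with 66.4 and 3205 in the labelled knockout, against 76.5 and 87.2 in wild type.

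The Prl2 and Prl7 genes had the same split between the 2 labelled knockout arrays. Prl2b1, the prolactin-like protein K, read 20.2 and 20538 in the labelled knockout, against 25.2 and 47.8 in wild type. Prl2a1, the prolactin-like protein M, read 47.8 and 12434 in the labelled knockout, against 45.7 and 82.5 in wild type. Prl7d1, the proliferin-related protein that is known to inhibit vessel growth, read 2.95 and 11544 in the labelled knockout, against 25.6 and 2.09 in wild type. Only the replicate 2 array of the labelled knockout was above 100 in these 3 genes. Prl7a2, the prolactin-like protein F, read 0.544 and 12199 in the labelled knockout, against 2.41 and 11.3 in wild type. Its neighbour Prl7a1, the prolactin-like protein E, read 21.3 and 1291 in the labelled knockout, against 26.1 and 12.9 in wild type. The paired windows of these neighbours had 75.7% identity.

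Hormones with known maternal targets or sites were also on labelled knockout replicate 2. Prl4a1, the prolactin-like protein A that acts on uterine natural killer cells, read 4.83 and 1575 in the labelled knockout, against 17 and 10.3 in wild type. Prl3a1 read 14.3 and 5088 in the labelled knockout, against 55.5 and 53.0 in wild type. Prl7b1 had an excess of 3.83 and Prl7c1 of 2.96. The 2 members best known from decidua lay on either side of Prl7b1 and Prl7c1 in excess, Prl8a2 below both and Prl3c1 above both. Prl8a2, the decidual prolactin-related protein, read 28.5 and 351 in the labelled knockout, against 39.7 and 49.1 in wild type. Prl3c1, a prolactin-like protein of decidua, read 6.68 and 594 in the labelled knockout, against 4.91 and 1.55 in wild type. Both were past the 4-fold rule, with excesses of 2.50 and 4.75. Prl5a1, at 2.92 and 110 in the labelled knockout and 22.0 and 5.32 in wild type, was highest on the same array with an excess of 1.73. Prl6a1, the prolactin-like protein B, read 2.81 and 26.5 in the labelled knockout, against 25.1 and 28.7 in wild type, and was the only prolactin family member not highest on labelled knockout replicate 2.

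All 8 Psg members were at least 4-fold higher on labelled knockout replicate 2, with excesses between 4.88 and 8.95 log2 units. Psg genes encode secreted glycoproteins that reach the maternal blood in pregnancy. Psg21 read 68.2 and 26811 in the labelled knockout, against 106 and 112 in wild type. Psg16 read 112 and 22635 in the labelled knockout, against 103 and 38.4 in wild type. Psg23 read 248 and 13349 in the labelled knockout, against 438 and 340 in wild type. On labelled knockout replicate 1, Psg21 and Psg23 were thus below both wild-type arrays. Psg28 read 129 and 10887 in the labelled knockout, against 302 and 80.5 in wild type. The pseudogene Psg-ps1 read 4.04 and 10054 in the labelled knockout, against 4.41 and 2.60 in wild type. Psg18 read 97.2 and 4103 in the labelled knockout, against 34.5 and 30.9 in wild type, so its groups did not overlap. Psg17 and Psg19 read 3254 and 2006 on labelled knockout replicate 2 and at most 90.1 and 41.7 elsewhere.

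Of the Ceacam genes, 5 of 7 passed the 4-fold rule. Ceacam11 read 117 and 43794 in the labelled knockout, against 187 and 149 in wild type. Ceacam14 read 18.6 and 29153 in the labelled knockout, against 23.7 and 59.8 in wild type. Ceacam12 read 30.5 and 25984 in the labelled knockout, against 70.8 and 30.0 in wild type. Labelled knockout replicate 1 was below both wild-type arrays in Ceacam11 and Ceacam14 and inside it in Ceacam12. Ceacam13 read 22.5 and 5150 in the labelled knockout, against 77.1 and 42 in wild type. Ceacam15 read 85.1 and 635 in the labelled knockout, against 124 and 28.0 in wild type, just past the rule with an excess of 2.22. Ceacam9 read 49.0 and 187 in the labelled knockout, against 85.0 and 72.8 in wild type, an excess of 1.01. Ceacam10, known from the seminal vesicle and lying outside the cluster, read 334 and 560 in the labelled knockout, against 347 and 426 in wild type, an excess of 0.38.

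Tpbpa and Tpbpb, whose products are small secreted proteins and of which Tpbpa is the usual marker of spongiotrophoblast and glycogen cells, both passed. Tpbpa read 136 and 37380 in the labelled knockout, against 126 and 374 in wild type. Tpbpb read 209 and 38677 in the labelled knockout, against 290 and 248 in wild type. Apart from labelled knockout replicate 2, Tpbpa was highest on wild-type replicate 2. A second Tpbpa probe set read 118 and 46450 in the labelled knockout, against 94.7 and 179 in wild type. The 2 genes are near copies in their promoter windows, printed above, and how far their probe sets share targets was not known.

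Of the 8 cathepsins, 6 passed the 4-fold rule with excesses of 4.89 to 7.94, and 2 from the same run did not. Ctsj read 4.49 and 6866 in the labelled knockout, against 12 and 4.03 in wild type. Ctsq, known from sinusoidal giant cells of the labyrinth, read 18.9 and 5641 in the labelled knockout, against 12.5 and 29.9 in wild type. Cts3 read 51.4 and 16257 in the labelled knockout, against 112 and 122 in wild type. Labelled knockout replicate 1 was below both wild-type arrays for Cts3 and between them for Ctsj and Ctsq. Ctsm, Cts6 and Ctsr read 3831, 3403 and 1089 on labelled knockout replicate 2 and at most 47.5, 52.7 and 21.4 elsewhere. Cts7 and Cts8 are known from the ectoplacental cone and from invading giant cells of the early placenta. Cts7 read 32.6 and 7.99 in the labelled knockout, against 64.1 and 2.95 in wild type. Cts8 read 37.7 and 50.6 in the labelled knockout, against 56.2 and 3.49 in wild type. Both were dim on all 4 arrays and highest on wild-type replicate 1 by these probe sets. By another probe set, Cts7 was highest on wild-type replicate 2, at 3.91, and Cts8 on labelled knockout replicate 2, at 23.9.

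**Figure D2:**
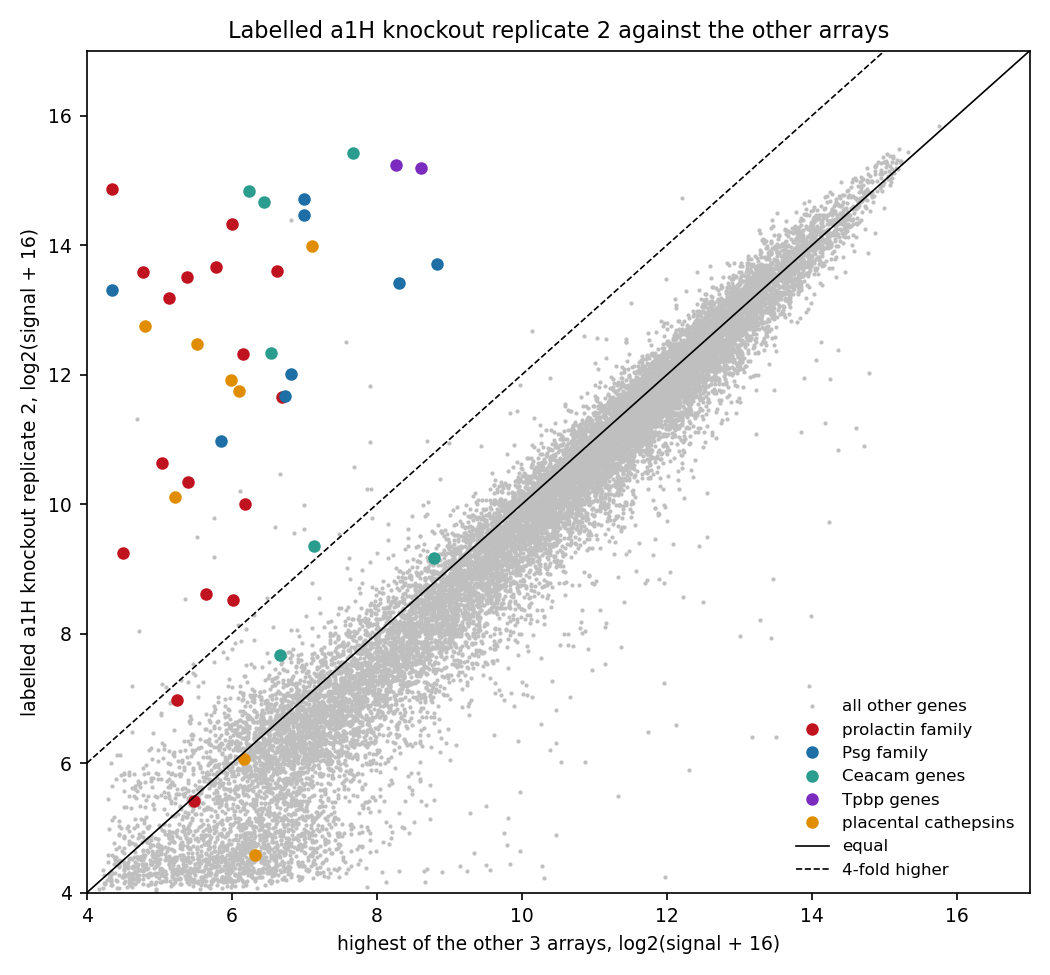
Each point is a gene, with its level on labelled a1H knockout replicate 2 on the vertical axis and the highest of the other 3 arrays on the horizontal axis, both as log2(signal + 16). Members are coloured by family, and 36 of 42 lie on or above the dashed line of a 4-fold difference, where 65 of 18194 genes lie in all.

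Other probe sets of the same genes gave the same picture in most cases. Of the 62 single-gene probe sets, 55 were highest on labelled knockout replicate 2 and 48 were at least 4-fold higher there. Of 11 genes with several probe sets, 3 had probe sets on both sides of the rule, namely Prl7a1, Prl8a1 and Psg21. The probe sets of Psg21 had excesses of 7.71, 7.20 and 1.72. Prl7a1 had a probe set at 9.13 on labelled knockout replicate 2, where its brightest read 1291. All 6 probe sets of Ceacam11 read between 24098 and 43794 on that array, and at most 187 on the others. Members of gene families can share hybridisation, so a signal may hold transcripts of several members, mostly on probe sets whose identifiers end in x_at or s_at. Transcript and probe sequences were not compared. Without probe sets ending in x_at, s_at or a_at, 26 of 35 members still passed the 4-fold rule.

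The comparison of labelled knockout with wild type did not separate the members. In the limma fit over 18194 genes, 0 genes (0%) passed 0.05 after Benjamini-Hochberg adjustment, and the adjusted p-values of the members were between 0.885 and 0.977. At an unadjusted p under 0.05 and higher in the labelled knockout there was 1 member, Psg18, of 42, against 2.19% of all genes. Lower ones were 0 of 42, against 2.47%. The median log2 difference of the members, labelled knockout minus wild type, was 2.99, and that of all genes -0.02. The members' median SE was 1.91, against 0.30 for all genes, since the 2 labelled knockout arrays differed from each other. Prl8a9 averaged 14942 ± 21125 in the labelled knockout and 3.86 ± 0.590 in wild type (SD, n = 2 each). Its limma log2 difference was 5.30 (SE 2.93, Benjamini-Hochberg adjusted p = 0.885). The groups did not overlap, with the labelled knockout higher, for 6 of 42 members, against 16.8% of all genes, a like share. These were Prl3c1, Prl8a6, Prl8a9, Psg16, Psg17 and Psg18. For the labelled knockout lower, these were 0 of 42 members and 19.1% of all genes.

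Within the replicate 1 arrays, 11 members were higher and 31 lower in the labelled knockout, with differences from -1.55 to 1.16 and a median of -0.44 on the log2 scale. Within the replicate 2 arrays, 41 members were higher and 1 was lower, with differences from -0.07 to 10.53 and a median of 6.47. The medians of all genes were -0.02 and 0.00. Those of the 70 receptor genes taken as a background level were -0.47 and 0.09. The members' median within the replicate 1 arrays was thus near that of these dim genes. When labelled knockout replicate 1 was left out, 34 of 42 members passed the limma test as higher, against 0.396% of all genes (72), with the lone labelled knockout array assumed to vary like wild type. This fit compares 1 sample with 2. The families were proposed because of the measured signals, which were high on that lone array. Its calls of members therefore follow from that choice and say nothing about genotype. When labelled knockout replicate 2 was left out, 0 of 42 members passed in limma against 0.0165% of all genes (3 genes), all higher. At an unadjusted p under 0.05 in that fit there were 0 members, against 3.15% of all genes as higher and 2.09% as lower, and the members' median log2 difference was -0.31. The median difference of these families thus rested on labelled knockout replicate 2, and over all 4 arrays the limma fit called 0 members.

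**Figure D3:**
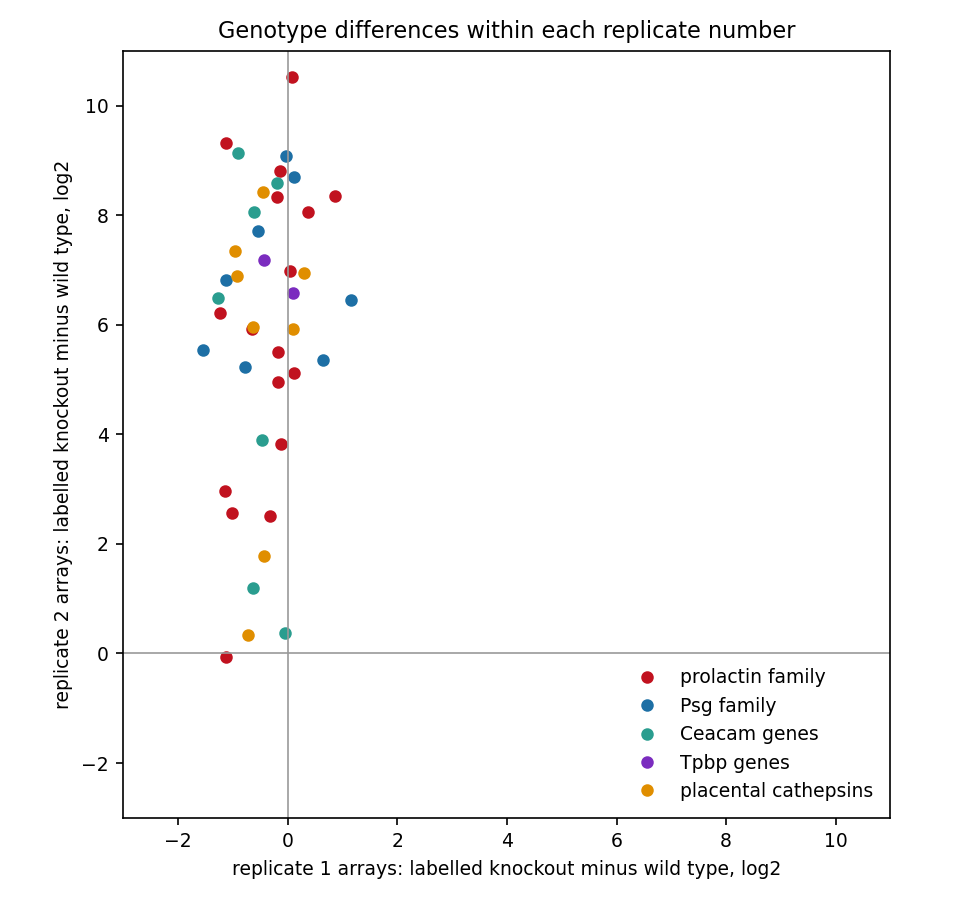
Each point is 1 of the 42 genes, with the log2 difference between labelled knockout and wild type on the replicate 1 arrays (horizontal) and on the replicate 2 arrays (vertical), coloured by family. Points spread from -0.07 to 10.53 on the vertical axis and from -1.55 to 1.16 on the horizontal axis.

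Other trophoblast genes, from a list of genes outside these families, were high on the same array in part. The list was drawn up with earlier results of these data known, so its counts are a description. Of 23 measured members of that list, 17 were highest on labelled knockout replicate 2 and 8 (34.8%) were at least 4-fold higher there, against 0.357% of all genes. The 8 were 1600012P17Rik, 1600025M17Rik, Serpinb9g, Serpinb9d, Sct, Rhox9, Rhox6 and Cdx2. 1600012P17Rik, a placental transcript, read 70.8 and 21364 in the labelled knockout, against 96.0 and 82.8 in wild type. Serpinb9d, of a serpin group with placental members, read 24.9 and 357 in the labelled knockout, against 7.78 and 1.55 in wild type. Sct, which encodes secretin, read 101 and 3602 in the labelled knockout, against 158 and 223 in wild type. Among the others, Pappa2, a placental protease of insulin-like growth factor binding proteins, read 1982 and 6070 in the labelled knockout, against 1875 and 2071 in wild type, an excess of 1.54. The transcription factors Hand1, of giant cells, and Eomes, of trophoblast stem cells, had excesses of -0.26 and -0.50. Summed over the list, the signal was 14787 and 63470 on labelled knockout replicates 1 and 2, and 17370 and 18835 on wild-type replicates 1 and 2. Of the sum on labelled knockout replicate 2, 21364 came from 1600012P17Rik alone. The median excess of the list was 0.82, and Cyp11a1 had the lowest at -1.58.

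Marker lists of tissues next to the trophoblast differed in whether labelled knockout replicate 2 was their highest array. Of 10 measured decidua and uterus genes, 2 were highest on labelled knockout replicate 2 and 0 passed the 4-fold rule there, and their summed signal was 9946 and 9188 in the labelled knockout, against 8896 and 9397 in wild type. Of 7 genes of uterine natural killer cells, 5 were highest on labelled knockout replicate 2, against 27.3% of all genes, and 1 passed the 4-fold rule. The list had a median signal of 13.4 and 140 in the labelled knockout, against 68.4 and 10.8 in wild type, and a summed signal of 10573 and 4830 in the labelled knockout, against 2091 and 3361 in wild type. The 5 were all granzyme genes, which encode proteases of killer cell granules. All 5 are on chromosome 14, and how far their probe sets share targets was not known. Gzmg, the one past the rule, read 3.61 and 246 in the labelled knockout, against 10.3 and 3.26 in wild type. Gzmc, Gzmd, Gzme and Gzmf read 124, 140, 108 and 80.8 on labelled knockout replicate 2, and at most 97.3, 23.4, 71.8 and 68.4 on the other arrays. Their excesses were 0.30, 1.99, 0.50 and 0.20, and the 95th percentile of the receptor genes on labelled knockout replicate 2 was 88.9. The other two were highest elsewhere. Gzma read 9527 and 3482 in the labelled knockout, against 654 and 2417 in wild type. Prf1, which encodes perforin, read 925 and 648 in the labelled knockout, against 1218 and 887 in wild type. Of 15 yolk sac and fetal liver genes, 1 passed on labelled knockout replicate 2 and 7 on wild-type replicate 2. The gene on labelled knockout replicate 2 was Ttr, which encodes transthyretin, at 556 and 27074 in the labelled knockout and 167 and 4684 in wild type. Afp, the alpha-fetoprotein gene, read 798 and 2282 in the labelled knockout, against 110 and 24975 in wild type. All 6 measured genes of fetal blood were highest on labelled knockout replicate 2, against 27.3% of all genes. Of these 6, 0 passed the 4-fold rule, against 0.357% of all genes, and their excesses ran from 0.13 for Alas2 to 1.56 for Hba-x. Their median signal was 722 and 2323 in the labelled knockout, against 846 and 417 in wild type. Of these, Hba-x, an embryonic globin, read 1227 and 3931 in the labelled knockout, against 1321 and 721 in wild type. The part of other cell types in the members' signals was not tested.

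**Figure D4:**
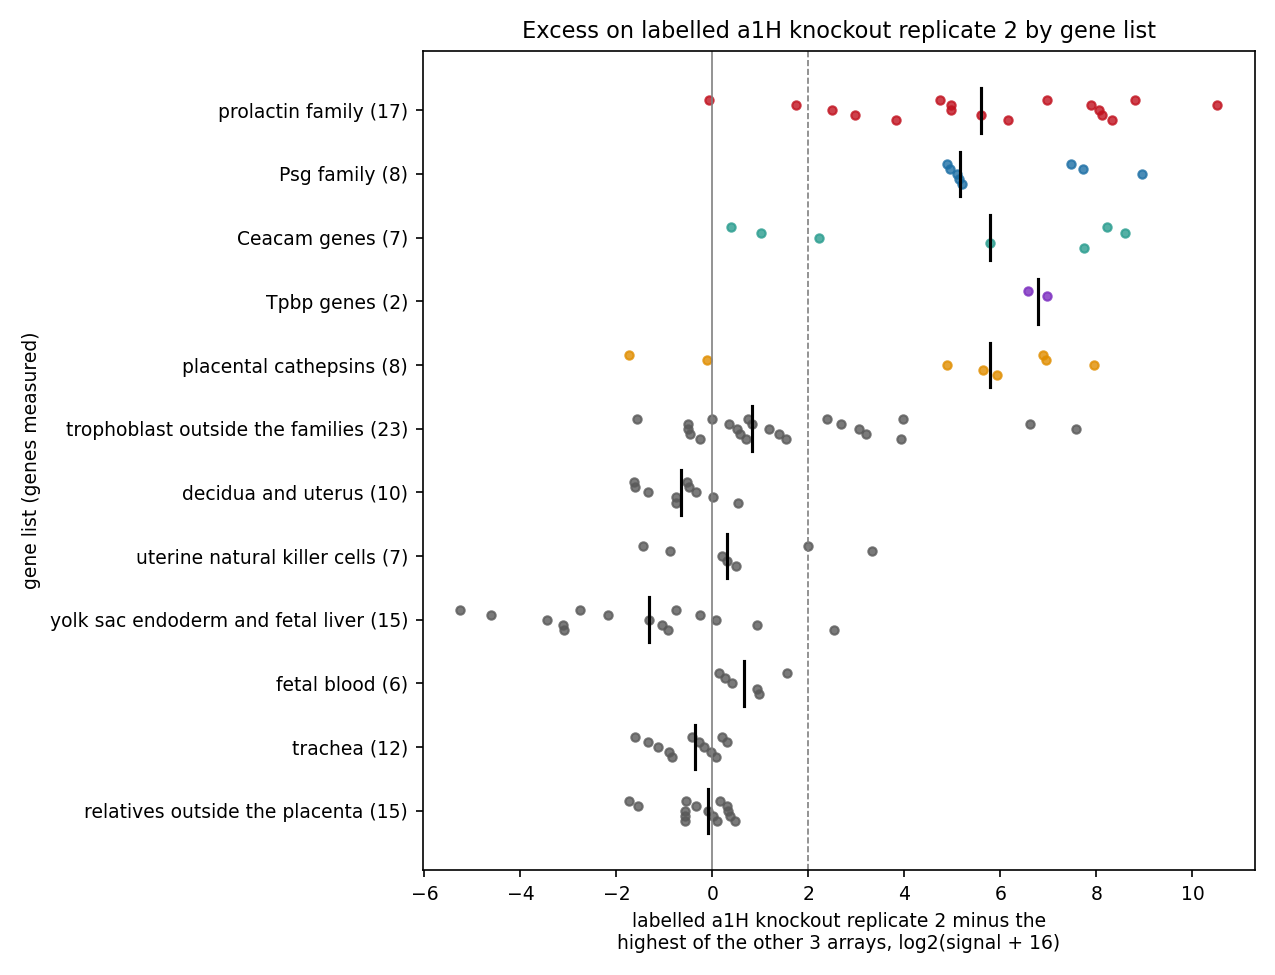
Each point is a gene, placed by its level on labelled a1H knockout replicate 2 minus the highest of the other 3 arrays in log2(signal + 16), with black bars at medians and a dashed line at a 4-fold excess. Medians of the 5 families lie between 5.16 and 6.78, that of other trophoblast genes at 0.82 and that of trachea genes at -0.36.

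Of 12 trachea genes, 3 were highest on labelled knockout replicate 2, 4 on wild-type replicate 1 and 5 on wild-type replicate 2. Col2a1, the main collagen of cartilage, read 14609 and 27724 in the labelled knockout, against 15468 and 24295 in wild type. Sox9, the transcription factor of chondrocytes, read 4755 and 6228 in the labelled knockout, against 5493 and 8347 in wild type. Of the 12, 0 passed the 4-fold rule on any array, and their median excess on labelled knockout replicate 2 was -0.36, against -0.29 for all genes. Lowest on labelled knockout replicate 2 were Tbx4 and Foxf1, transcription factors of airway mesenchyme, and Sox2, one of airway epithelium. Tbx4 read 1051 and 549 in the labelled knockout, against 1074 and 1412 in wild type. Foxf1 read 5405 and 4709 in the labelled knockout, against 8807 and 5752 in wild type. Sox2 read 5179 and 4560 in the labelled knockout, against 8218 and 6587 in wild type. The defining marker Nkx2-1, of the airway epithelium, read 145 and 145 in the labelled knockout, against 337 and 216 in wild type.

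Relatives of these families that work outside the placenta did not share the excess. Of 15 measured, 0 passed the 4-fold rule, and their median excess on labelled knockout replicate 2 was -0.10. Ctsl, the lysosomal protease the placental cathepsins are related to, read 10284 and 14234 in the labelled knockout, against 8944 and 13283 in wild type. Ceacam1, an adhesion molecule of epithelium and vessels, read 3672 and 3440 in the labelled knockout, against 3645 and 5149 in wild type. Prl, the pituitary hormone, was dim at 2.56 and 27.6 in the labelled knockout and 46.8 and 49.2 in wild type. Other measured genes inside the runs did not share it either, and whether they lie between members of high excess is not given here. Of the 12 in the Psg and Ceacam run 0 passed the 4-fold rule, with Pnmal2 the highest in excess at 0.95, and Ctla2a had -0.45.

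Of the 65 genes past the 4-fold rule on labelled knockout replicate 2, 19 belonged to no list. Those outside all lists with the greatest excess were led by Ibsp, which encodes bone sialoprotein, at 175 and 5780 in the labelled knockout, against 126 and 123 in wild type. Panx3, a channel of bone and cartilage, read 42.6 and 1394 in the labelled knockout, against 49.2 and 85.7 in wild type. Olr1, a scavenger receptor, read 39.7 and 1162 in the labelled knockout, against 53.5 and 30.4 in wild type. The trophoblast serpin relative Serpinb9b had an excess of 2.99, and Taf7l, AU015836, Fthl17a, Ghrh and Trap1a had excesses of 4.03, 3.42, 3.05, 2.89 and 2.62.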

How the data were processed

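Expression was measured in 4 samples, 2 labelled a1H knockout and 2 wild type. Each probe set has 1 linear intensity per array in the deposited table, made by the authors with MAS5, per the submitters' processing notes. Its version and settings are not stated, and detection calls were not used here. Per the labels' protocols, Trizol RNA was amplified with the Ovation Pico system, which can favour 3' ends, and MAS5 is noisy for dim probe sets.

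Groups came from sample titles. Of 45101 probe sets, 64 controls were left out, 34945 had exactly 1 gene in a table of platform annotation, 932 had several and 9160 had none listed. Symbols of genes outside the families were updated through RefSeq for GRCm38.p6. Each gene was given by its brightest probe set, taken by mean log2(signal + 16). The fold differences use this pseudocount of 16, which understates differences of dim genes.

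All 18194 genes were tested with limma 3.58.1 in R 4.3.3 (lmFit, then eBayes with trend, over all 4 arrays with a genotype term alone), with Benjamini-Hochberg adjustment and a threshold of 0.05. Only 2 arrays per group limit the precision. The 4-fold rule on a single array is a count with no test. Scripts were tested on simulated data, and figures were drawn with matplotlib 3.10.9.

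All members are named whatever their values, with all genes of 7 marker lists open to naming and up to 12 genes outside all lists with the greatest excess on labelled knockout replicate 2. The members, lists and rules were chosen with earlier results of these data known. Promoter motifs were chosen after the data were seen.

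Alternatives were the pseudocount, a level filter, quantile normalisation, median centring, the choice of probe set, array weights, no intensity trend, a block for the replicate number and each array left out. Choosing probe sets without labelled knockout replicate 2 was added after seeing the data.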

Additional observations from a re-analysis of the deposited data

Results flagged for a closer look

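Of the probe sets of these families, 3 are listed under several genes each and were used in no comparison. On labelled knockout replicate 2 each read above both wild-type arrays, and on labelled knockout replicate 1 none did. A probe set listed under Prl2c2, Prl2c3, Prl2c4 and Gm7040 read 8.06 and 24418 in the labelled knockout, against 54.8 and 50.3 in wild type. Another, listed under these genes and Prl2c5, read 19.4 and 228 in the labelled knockout, against 57.4 and 34.5 in wild type. The third, listed under Psg21 and Psg23, read 18.6 and 8728 in the labelled knockout, against 65.2 and 6.74 in wild type. None can be assigned to 1 gene.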

How the results depend on the processing

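Under the alternatives that keep all 4 arrays, the limma fits called 0 genes and 0 members. With single arrays left out, the number of genes called ranged from 0 to 137 and that of members from 0 to 34, both highest when the replicate 1 array of the labelled knockout was dropped. Without labelled knockout replicate 2, 3 genes and 0 members were called. A fit with 1 array left out has 1 array in a group, and the families were proposed because of signals high on labelled knockout replicate 2. These counts of members therefore say nothing about genotype. The members' median log2 difference ranged from -0.31, with labelled knockout replicate 2 left out, to 6.16, with the other labelled knockout array left out. With a level filter at the median of all probe sets, 7 members were left, of which 6 passed the 4-fold rule and 7 were highest on labelled knockout replicate 2, so these counts were smaller because fewer genes were tested. That filter used the mean over all 4 arrays, so members could pass it through labelled knockout replicate 2 alone, and their excess there was then fixed by the filter and supports nothing. Under every other alternative run for these counts, 26 to 37 members passed the rule and 30 to 41 were highest, where the 26 and 30 are of the 35 members left without x_at, s_at and a_at probe sets. The labels do not say that the replicate numbers pair samples. Deviations of same-numbered arrays correlated at 0.15 over all genes, which 2 pairs cannot settle. With the replicate block the limma fit called 0 members. Its median log2 difference of 2.99 had to equal that of the main fit, since each genotype has 1 array of each replicate number. Of the members, 29 of 42 changed the sign of their difference without labelled knockout replicate 2. Their median signals on the arrays left were 25.5 on labelled knockout replicate 1 and 41.2 and 32.5 in wild type. Signs of such dim signals are not reliable, and the share over all genes is not given here. At most 2 members changed sign under any other setting, and under the replicate block none could. Signals near background, such as those of Cts7, Cts8 and Prl6a1, have no reliable order among arrays.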
